A study of Canis lupus familiaris with 6 samples.

Results

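The genes described here are the proteasome and immunoproteasome genes of the dog neural retina, chosen by name: every symbol in the deposited gene lists that starts with PSMA, PSMB, PSMC, PSMD, PSME, PSMF or PSMG followed by a digit. There are 50 such symbols among 34981. Of these, 2 share only the name of a subunit: PSMC3IP, a meiotic recombination factor, and PSME3IP1, a protein that binds the PSME3 activator. The question was how PSMB8, PSMB9, PSMB10, PSME1 and PSME2, the 5 inducible subunits, differ from the constitutive subunits in each cell class of retina lying over a graft.

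The dogs had normal retinas and a normal or wild-type genotype, and were immunosuppressed. Fragments of human retinal organoids, grown from the WA09 embryonic stem cell line with a CRX-tdTomato reporter, had been injected under the retina 3 days earlier. There were 3 independent experiments (LG5, RC726, RC724). Each gave 2 punches of neuroretina, 5 mm wide, 1 lying over the graft and 1 from a graft-free region, and every punch was dissociated and made into its own 3' single-cell library. The control punches therefore also came from grafted, immunosuppressed animals, with no untreated retina among the groups compared here. The labels do not say whether each experiment was a separate dog, so p-values refer to these experiments. The edgeR test used below also borrows spread from other genes, so its p-values do not measure the spread of a gene between experiments alone.

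The proteasome degrades proteins that carry ubiquitin chains. Its 20S core is a barrel of alpha rings and beta rings, and 3 of the beta subunits, PSMB5, PSMB6 and PSMB7, hold the cutting sites. Interferon gamma induces PSMB8, PSMB9 and PSMB10, which take the places of those 3 subunits in newly built cores. The resulting immunoproteasome favours peptides that fit major histocompatibility complex (MHC) class I molecules. The 19S cap recognises and unfolds substrates, and PSME1 with PSME2 forms an alternative, interferon-inducible cap called PA28.

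The libraries held 8778 to 23908 barcodes and 34768162 to 60755006 unique molecular identifiers (UMIs, counts of captured transcripts), and 8038 to 22427 barcodes passed the filters. Both LG5 libraries stood apart: the median kept barcode had 1194 UMIs over the graft and 1281 in control, against 1955 to 2778 elsewhere, and most of their cells fell in clusters with few cells of the other libraries. Any 2 libraries shared 17 to 102 barcode sequences, at most 0.677% of the smaller library. Cells were classed by clusters named from marker genes, without use of the proteasome genes, and UMIs were summed per library and class. In 7 classes every library had at least 10 barcodes: rod-like, cone-like, Müller glia-like, bipolar-like, amacrine-like, horizontal-like and microglia/macrophage-like. Levels are given as CPM, the UMIs of a gene per 1e+06 UMIs of the class sum. Changes are log2 fold changes over the graft against control, with their standard error (SE), from edgeR's quasi-likelihood test with the experiment as a block, and p-values are adjusted by Benjamini-Hochberg over all genes tested in the class. In such sums, more cells with a transcript and more transcript per cell cannot be told apart.

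Rod-like cells over the graft had strongly raised levels of the 3 inducible catalytic subunits. PSMB8, the partner of PSMB5, stood at 321 CPM over the graft and 1.30 in control in LG5, at 31.8 and 2.43 in RC726, and at 38.3 and 0.499 in RC724. PSMB9, the partner of PSMB6, was at 37.6 and 0.977 CPM for LG5, 17.4 and 2.08 for RC726, and 25.3 and 1.30 for RC724. PSMB10, the partner of PSMB7, was at 190 and 3.26 CPM for LG5, 13.7 and 1.46 for RC726, and 15 and 0.897 for RC724. All 3 genes were higher over the graft in each experiment, and the LG5 punch over the graft was the highest library. The control values rest on few molecules, 5 to 35 UMIs for PSMB8, 6 to 30 for PSMB9 and 9 to 21 for PSMB10, while over the graft the sums held 213 to 1818 UMIs. The log2 change was 5.62 ± 0.48 (SE, n = 3 pairs) for PSMB8 (edgeR adjusted p = 3.12e-05), 3.94 ± 0.29 for PSMB9 (adjusted p = 1.28e-05) and 4.61 ± 0.35 for PSMB10 (adjusted p = 1.48e-05).

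The PA28 subunits rose less, from a higher base. PSME2 was at 199 CPM over the graft and 29.3 in control for LG5, 36.2 and 14.0 for RC726, and 58.6 and 16.9 for RC724, again higher over the graft in each experiment. PSME1 was at 430 and 135 CPM for LG5, 111 and 61.0 for RC726, and 145 and 69.1 for RC724, so each experiment rose but the LG5 control lay above the RC726 punch over the graft. The log2 change was 1.97 ± 0.20 for PSME2 (edgeR adjusted p = 9.36e-05) and 1.19 ± 0.14 for PSME1 (adjusted p = 0.000199).

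**Figure D1:**
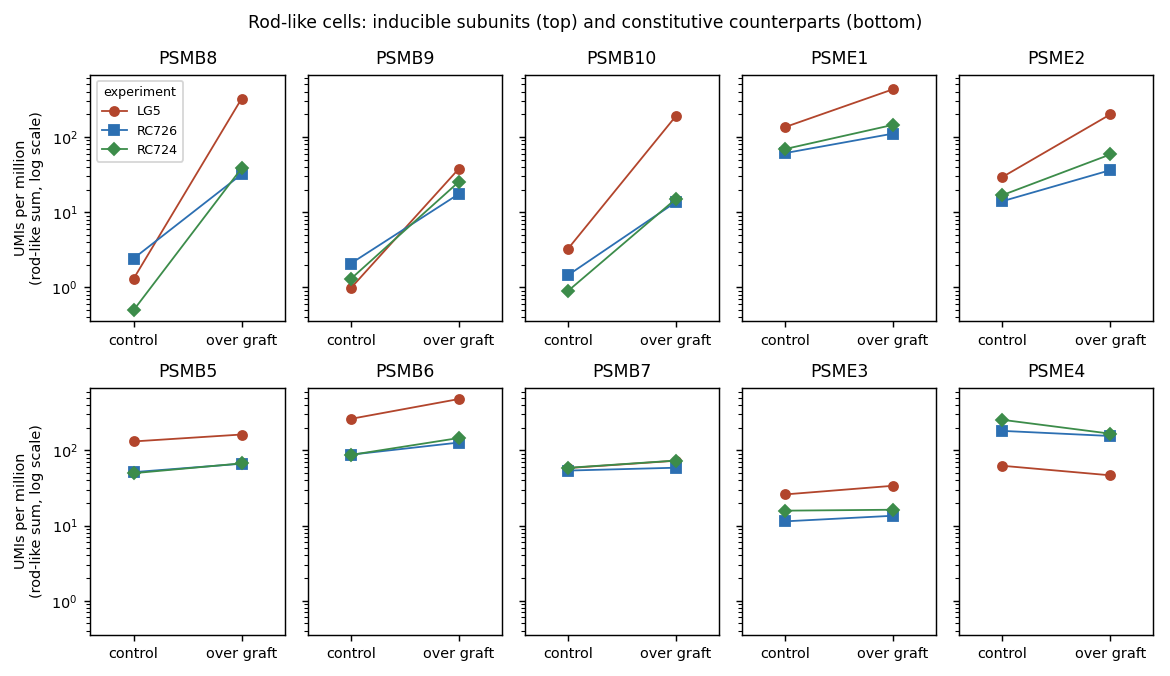
Levels of the 5 inducible subunits (top row) and their constitutive counterparts (bottom row) in rod-like cells, in CPM on a log axis. Each line joins the control punch and the punch over the graft of an experiment, so PSMB8 is seen to climb from between 0.499 and 2.43 to between 31.8 and 321, while PSMB5 stays between 49.6 and 162.

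Without LG5, the log2 changes in rod-like cells were 4.44 for PSMB8, 3.56 for PSMB9, 3.54 for PSMB10, 0.96 for PSME1 and 1.58 for PSME2, and each kept an edgeR adjusted p of at most 0.000863. When the experiment was not modelled as a block, none of the 5 passed the edgeR threshold, although 4 had an unadjusted p under 0.05 and DESeq2, which had the block, called all 5. Without the block edgeR called 0 of all 15315 genes tested in rod-like cells, in either direction. Markers of immune cells were higher over the graft in the LG5 rod-like sums: the 12 microglia and macrophage markers summed to 44.2 CPM over the graft and 13.4 in control, with 8 markers detected in each, and the 10 lymphocyte markers to 7.42 and 0.489. In RC726 and RC724 the microglia and macrophage markers summed to 1.59 to 3.27 CPM in rod-like cells of either group, while PSMB8 was at 31.8 and 38.3 CPM over the graft. In the microglia/macrophage-like sums themselves, the same markers reached 8365 to 15950 CPM and PSMB8 199 to 413.

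The constitutive catalytic subunits changed far less in the same cells. PSMB6 was at 479 CPM over the graft and 261 in control for LG5, 126 and 87.3 for RC726, and 145 and 86.6 for RC724, a log2 change of 0.71 ± 0.11 (edgeR adjusted p = 0.00099). PSMB5 was at 162 and 131 CPM, 66.2 and 51.2, and 66.9 and 49.6 in the same order, a log2 change of 0.36 ± 0.10 (adjusted p = 0.0314). PSMB7 was at 72.6 and 58.0, 58.6 and 53.7, and 73.0 and 58.4 CPM, with a log2 change of 0.25 ± 0.11 that did not pass (adjusted p = 0.125). All 3 were higher over the graft in each experiment, but the groups overlapped for PSMB5 and PSMB6. The call for PSMB5 was lost with DESeq2 (adjusted p = 0.0622) and, by edgeR, without RC726 (adjusted p = 0.108), without RC724 (adjusted p = 0.262), without the block, with a marker gate on each barcode in place of clusters, without the rod-like cluster led by VMO1 and with the unnamed clusters nearest to rod added, while that for PSMB6 was lost without the block only.

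Neither of the other activators was called higher. PSME3, the nuclear homologue that forms PA28 gamma, was at 33.7 and 25.9 CPM for LG5, 13.5 and 11.4 for RC726, and 16.2 and 15.8 for RC724, a log2 change of 0.21 ± 0.14 that did not pass (edgeR adjusted p = 0.309). PSME4, the large single-chain activator PA200, fell by 0.42 on the log2 scale (SE 0.11, adjusted p = 0.0216), from 62.2 to 46.5 CPM in LG5, from 181 to 155 in RC726 and from 254 to 166 in RC724. It was lower over the graft in all 3 experiments, though the LG5 libraries lay well below the others, so the groups overlapped. The call was lost without RC724 (edgeR adjusted p = 0.203) and without the block. The only other fall was that of PSME3IP1, by 0.36 (SE 0.11, adjusted p = 0.045), a call that held in 1 of 12 other settings. PSMF1, an inhibitor that binds the ends of the core, was at 42.2 and 35, 49.9 and 46.0, and 61.2 and 46.2 CPM, with a log2 change of 0.26 ± 0.11 that did not pass (adjusted p = 0.137).

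Of the 50 genes, 48 were tested in rod-like cells, and 20 rose and 2 fell, against a background of 11.2% of 15315 tested genes called higher and 10.0% called lower. The 5 inducible genes account for 5 of the 20 rises, and 15 of the other 43 tested genes rose. The median log2 change was 0.31 over those 43 genes and 3.94 over the 5 inducible genes, against 0.01 over all genes tested. The highest change outside the 5 inducible genes was that of PSMB6, 0.71. The untested pair was PSMA8, the testis alpha subunit, at 0 to 0.209 CPM, and PSMB11, the thymus catalytic subunit, which had a UMI in the RC726 control only (0.0693 CPM). Without RC724 the rises numbered 7, the 5 inducible genes with PSMB6 and PSMG4, and without the rod-like cluster led by VMO1 they numbered 10. Over all genes, 628 of 15002 and 980 of 14737 were called higher in these fits, against 1720 of 15315 in the main fit. Without the block for the experiment, 0 rose and 0 fell by edgeR, as did 0 of all 15315 genes, with 4 of the 48 at an unadjusted p under 0.05. DESeq2, which had the block, called 16 higher and 1 lower.

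Within the 20S core, all 4 structural beta subunits rose: PSMB1 by 0.66 ± 0.11 on the log2 scale, PSMB3 by 0.63 ± 0.11, PSMB2 by 0.44 ± 0.10 and PSMB4 by 0.43 ± 0.11, with edgeR adjusted p from 0.00189 to 0.0178. PSMB1 was at 455 CPM over the graft and 264 in control for LG5, 158 and 116 for RC726, and 186 and 109 for RC724. PSMB3 was at 162 and 94.9, 51.3 and 38.6, and 57.9 and 34.4 CPM. Both were higher over the graft in each experiment, and the groups overlapped, with both LG5 libraries among the highest. Without RC724 none of the 4 passed (edgeR adjusted p from 0.0514 to 0.223). Of the 7 tested alpha subunits, which form the outer rings, PSMA4, PSMA7 and PSMA5 rose, by 0.54, 0.42 and 0.36, and the other 4 had log2 changes from 0.26 to 0.34 that did not pass. PSMA4 was at 277 and 165 CPM for LG5, 101 and 78.4 for RC726, and 132 and 90.6 for RC724.

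The proteins that assemble the core split in the same cells. PSMG4, a chaperone of early alpha-ring assembly, was at 94.9 CPM over the graft and 57.2 in control for LG5, 28.9 and 18 for RC726, and 26.9 and 17.5 for RC724, a log2 change of 0.67 ± 0.11 (edgeR adjusted p = 0.00189). PSMG1, which pairs with PSMG2, rose by 0.45 ± 0.11 (adjusted p = 0.0135). PSMG2 itself was at 36.0 and 30.9, 26.6 and 26.7, and 37.8 and 39.3 CPM, and neither PSMG2 nor PSMG3, the partner of PSMG4, passed. Their log2 changes were 0.04 ± 0.12 and 0.22 ± 0.19. POMP, the chaperone that completes the core, was not analysed here.

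The 19S cap had 3 called genes of 17, all higher, where 11.2% of all tested genes were called higher. Of its 6 ATPases, PSMC1 to PSMC6, which unfold the substrate, 0 passed the edgeR threshold, 2 had an unadjusted p under 0.05 and DESeq2 called 0. Their log2 changes ran from -0.09 for PSMC6 to 0.32 for PSMC4. Of the 11 other cap subunits, PSMD6, PSMD7 and PSMD8 rose, by 0.40, 0.38 and 0.34, and the remaining 8 had changes of 0.03 to 0.38. The ubiquitin receptor PSMD4 was among these, at 148 CPM over the graft and 118 in control for LG5, 60.6 and 54.1 for RC726, and 69.8 and 55.4 for RC724. Of the 3 chaperones of cap assembly, PSMD10, also known as gankyrin, rose by 0.44 ± 0.12 (adjusted p = 0.0229), and PSMD5 and PSMD9 did not pass.

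**Figure D2:**
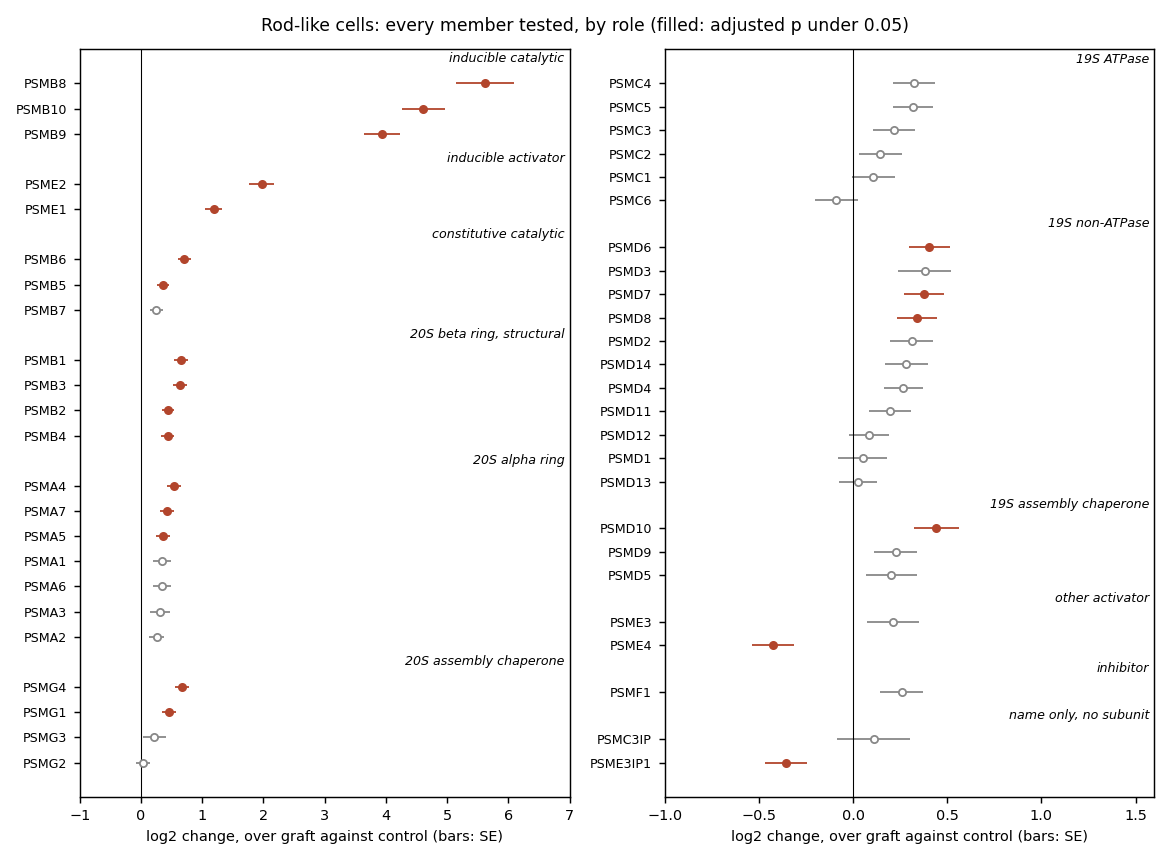
Log2 change over the graft against control in rod-like cells for the 48 tested genes, grouped by role, with bars for the SE and filled points for an adjusted p under 0.05. The 5 inducible genes lie between 1.19 and 5.62, and every other gene lies between -0.42 and 0.71 (the axes of the panels differ).

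Neighbours of the proteasome genes in function were read from 2 lists that are no members. Of 22 proteasome partners (receptors, shuttles, deubiquitinases, regulators), 4 rose and 0 fell, with a median log2 change of 0.14, and 11.2% of all tested genes were called higher. Among them were ZFAND5, a stress-induced activator of the proteasome (0.64), UBB, a polyubiquitin gene (0.44), and ADRM1, a ubiquitin receptor of the cap (0.43), and none of these 3 passed without RC724 (edgeR adjusted p from 0.0606 to 0.364). All 7 genes of a short list of the interferon and MHC class I pathway rose in rod-like cells, against the same 11.2% of all tested genes. The 4 smallest p-values were those of TAP1, the peptide transporter (5.59), B2M, the class I light chain (3.95), NLRC5, the class I transactivator (4.67), and TAPBP, the loading factor tapasin (4.0). In the RefSeq gene order of the dog assembly UU_Cfam_GSD_1.0, the neighbours on chromosome 12 are TAP2, PSMB8, TAP1 and PSMB9, and on chromosome 8 PSME1, EMC9 and PSME2. How reads of overlapping neighbours were counted, and on which strand, was not stated in the labels or file headers.

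Rod-like cells fell into clusters, and the inducible genes differed between them although no proteasome gene had been used to form them. In RC726 over the graft, PSMB8 was at 62.6 CPM in the cluster led by VMO1, 54.4 in that led by CLUL1, 28.0 in that led by LOC119873961, 14.5 in that led by LOC102155931, 12.1 in that led by PDE6G and 2.69 in that led by PDE8A. In RC724 over the graft it was at 56.6 in the VMO1-led cluster, 34.3 in the PDE6G-led cluster and 9.52 in the PDE8A-led cluster, the last from 8 UMIs. PSMB5 was at 75.7, 95.6, 37.3, 23.1, 93.3 and 65.7 CPM in the same 6 RC726 clusters, so it differed between them too, with its lowest levels in 2 clusters other than that with the lowest PSMB8. The VMO1-led and PDE8A-led clusters had like depth, with medians of 4457 and 4424 UMIs in RC726 over the graft.

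In RC726, 1236 barcodes over the graft and 179 control barcodes fell in the VMO1-led cluster, and in RC724 1253 and 123, so it made up more of the rod-like sums over the graft. Without that cluster, an alternative added after the data were seen, the log2 changes in rod-like cells were 5.66 for PSMB8, 3.59 for PSMB9, 4.48 for PSMB10, 0.98 for PSME1 and 1.77 for PSME2, and all 5 stayed past the edgeR threshold. In LG5, 2 other clusters, led by RP1 and LOC119867171, held 1501 and 3554 of the 5150 rod-like barcodes over the graft, and there PSMB8 over the graft was at 280 and 365 CPM against 0.794 and 2.28 in control. In every one of the clusters compared, PSMB8 was higher over the graft than in the control of the same experiment.

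**Figure D3:**
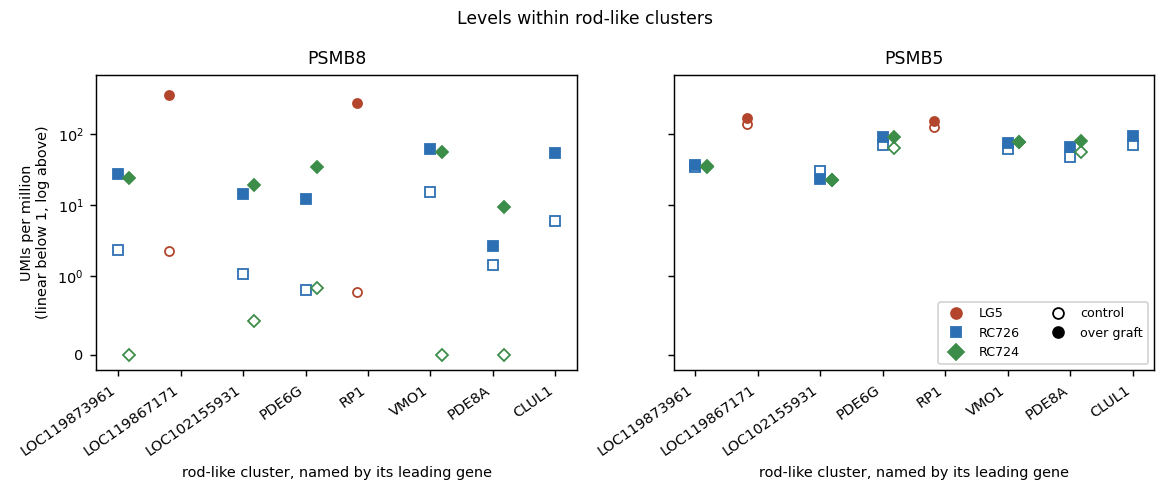
Levels of PSMB8 (left) and PSMB5 (right) within rod-like clusters that held at least 100 barcodes in a library, in CPM (linear below 1, log above), with open points for control and filled points for punches over the graft. Over the graft in RC726, PSMB8 runs from 2.69 to 62.6 and PSMB5 from 23.1 to 95.6 over the 6 clusters.

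Müller glia-like cells carried the inducible genes already in control. PSMB8 was at 22.9 CPM in LG5, 19.9 in RC726 and 19.5 in RC724 in control, from 154 to 397 UMIs, and at 79.9, 36.2 and 23.9 over the graft. PSMB9 was at 13.2, 29.3 and 27.3 CPM in control and 20.2, 46.0 and 35.1 over the graft. PSMB10 was at 14.6, 3.88 and 7.46 CPM in control and 55.5, 11.2 and 12 over the graft. All 3 genes were higher over the graft in each experiment, and the groups overlapped for PSMB9 and PSMB10. PSMB10 alone passed the test, with a log2 change of 1.36 ± 0.26 (edgeR adjusted p = 0.0393), against a background of 0.563% of 15820 tested genes called higher, and DESeq2 also called 1, of the 47 genes for which it gave an adjusted p. This call was lost without the block, without RC726, without RC724, with the barcode gate and with free RNA subtracted, where the log2 changes were 1.68, 1.30, 1.83, 1.19 and 1.26. Few genes of any kind were called in these fits. Those called higher numbered 0 of 15820, 30 of 16471, 1 of 15135, 0 of 15538 and 2 of 14610 in the same order, against 89 of 15820 in the main fit.

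The other inducible genes of Müller glia-like cells had log2 changes of 0.98 ± 0.27 for PSMB8 (edgeR adjusted p = 0.136), 0.53 ± 0.15 for PSMB9 (adjusted p = 0.151), 0.53 ± 0.17 for PSME2 (adjusted p = 0.186) and -0.10 ± 0.17 for PSME1 (adjusted p = 0.841). PSME1 was at 232 CPM over the graft and 248 in control for LG5, 133 and 116 for RC726, and 139 and 185 for RC724, so it was higher in RC726 only. PSME2 was at 104 and 59.0, 40.2 and 28.2, and 56.1 and 47.0 CPM, higher over the graft in each experiment. Among the counterparts, the log2 changes were 0.17 for PSMB5, 0.37 for PSMB6, 0.14 for PSMB7, 0.21 for PSME3, 0.17 for PSME4 and 0.06 for PSMF1, and none passed. The median over the 43 other tested genes was 0.17, against -0.0035 over all genes tested. Microglia and macrophage markers in these sums stood at 109 CPM over the graft and 31.4 in control for LG5, 25.8 and 24.8 for RC726, and 81.7 and 52.8 for RC724, and their part in the changes of PSMB8 and PSMB10 was not tested.

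The log2 changes of the 5 inducible genes were lower in Müller glia-like than in rod-like cells, a difference whose calls depended on the fit. In a joint fit of both classes, in which the tests covered 11 pairs of classes with p-values adjusted within each pair, the change in Müller glia-like cells minus that in rod-like cells was -4.57 ± 0.68 for PSMB8 (edgeR adjusted p = 0.00311), -3.36 ± 0.35 for PSMB9 (adjusted p = 0.000274), -3.14 ± 0.53 for PSMB10 (adjusted p = 0.00669), -1.24 ± 0.23 for PSME1 (adjusted p = 0.0136) and -1.39 ± 0.28 for PSME2 (adjusted p = 0.0212). These were the 5 genes called among 48 tested, against a background of 2.7% of 17773 genes called in either direction. With a term for each library, which accounts for both classes coming from the same punch, the differences were -4.67, -3.59, -2.91, -1.23 and -1.38, and 0 passed (lowest edgeR adjusted p = 0.0504, 6 of 48 at an unadjusted p under 0.05; DESeq2 was not run on differences between classes). With that term, 0 of 17773 genes were called higher and 31 lower. Without RC724 only PSMB9 passed (adjusted p = 0.0476), where 7 of 16773 genes were called higher and 42 lower.

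Cone-like cells showed the inducible genes mainly in LG5. PSMB8 was at 277 CPM over the graft and 0.791 in control for LG5, 6.36 and 0.287 for RC726, and 3.29 and 0.977 for RC724, from 598, 22 and 9 UMIs over the graft and 1 to 3 in control. PSMB10 was at 102 and 1.98, 2.02 and 0.287, and 2.20 and 1.30 CPM, and neither gene passed the filter on low counts. These genes and PSMB9 were higher over the graft in each experiment, yet the RC726 and RC724 values over the graft lay far below those of rod-like cells. PSMB9, at 34.8 and 1.58, 7.51 and 3.44, and 6.22 and 3.91 CPM, had a log2 change of 2.0 ± 0.51 that did not pass (edgeR adjusted p = 0.0551) but passed without RC726 (adjusted p = 3.86e-06), and without LG5 it was 0.88 (adjusted p = 0.395). PSME2 was at 139 and 43.5, 22.8 and 24.4, and 34.0 and 20.8 CPM (0.79 ± 0.25, adjusted p = 0.132), and PSME1 had a log2 change of 0.44 ± 0.23 (adjusted p = 0.403). Without RC726 PSME2 (adjusted p = 4.02e-05) and PSME1 (adjusted p = 0.0429) passed, and without LG5 their log2 changes were 0.27 and -0.052.

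Of 46 genes tested in cone-like cells, 0 passed by edgeR or DESeq2 and 5 had an unadjusted p under 0.05, where 3.41% of 11651 tested genes were called. The log2 changes of the counterparts were 0.04 for PSMB5, 0.29 for PSMB6, 0.01 for PSMB7, -0.09 for PSME3 and 0.13 for PSME4. Of the interferon and MHC class I list, 4 of the 6 tested rose, among them TAP1 (3.75), NLRC5 (3.08) and B2M (2.35). Without LG5 these were 1.45 (edgeR adjusted p = 0.223), 2.20 (adjusted p = 0.0916) and 1.18 (adjusted p = 0.031). Without RC724 NLRC5 (adjusted p = 0.12) and B2M (adjusted p = 0.0767) did not pass, and DESeq2 called NLRC5 alone of the 3. None passed without the block, where 0 of 11651 genes were called. Rod markers summed to 6651 CPM in the LG5 cone-like cells over the graft and 13882 in the LG5 control, against 1090 to 1909 in the other libraries, and their part in the LG5 values was not tested. The change in cone-like cells was not shown to differ from that in rod-like cells for any of 48 genes (10 at an unadjusted p under 0.05, with 0.077% of all genes called). Without LG5, PSME1 alone was called in that comparison, where 18 of 15112 genes were called higher and 30 lower. In the joint fit with Müller glia-like cells PSMB8 was the only one of 48 genes called (0.24% of all genes were), but it had failed the filter on low counts in cone-like cells, so its difference of 5.58, or 2.41 without LG5, is given as a value only.

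In bipolar-like cells LG5 stood alone. PSMB8 was at 87.8 CPM over the graft and 0.97 in control for LG5, 1.05 and 0.252 for RC726, and 0.728 and 0.439 for RC724. PSMB10 was at 54.1 and 3.56, 1.84 and 2.01, and 3.40 and 1.32 CPM, with a log2 change of 2.41 ± 0.50 just short of the threshold (edgeR adjusted p = 0.0505). By edgeR it passed without RC726 (adjusted p = 2.01e-05) and without RC724 (adjusted p = 0.0113), and it had no fitted value without LG5. DESeq2 gave a log2 change of 1.71 (DESeq2 adjusted p = 0.9998). PSMB9 was at 13.2 and 0, 2.63 and 2.27, and 2.67 and 1.02 CPM (2.0 ± 0.66, adjusted p = 0.205, and 0.79 without LG5), a change that passed without RC726 (edgeR adjusted p = 0.00572). In RC726 and RC724 none of these genes exceeded 3.40 CPM over the graft. The free RNA estimated from rod markers amounted to 84.8% of the LG5 bipolar-like sum over the graft and 43.1% of its control, against 9.10 to 14.6% elsewhere. With it subtracted in every library, PSMB9 and PSMB10 had no fitted value, and its part in the LG5 values alone was not tested.

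The bipolar-like log2 change of PSME2, 0.82 ± 0.26 (edgeR adjusted p = 0.188), was 0.23 without LG5 and passed without RC726 (adjusted p = 0.00873), and that of PSME1 was 0.02 ± 0.14 (adjusted p = 0.971), with PSMB5, PSMB6, PSMB7, PSME3 and PSME4 at 0.19, 0.31, 0.26, 0.27 and -0.07. Of 46 tested genes 0 passed by edgeR and 11 had an unadjusted p under 0.05, and DESeq2 called 0 of the 45 for which it gave an adjusted p (none for PSMB9), where 0.615% of 12689 genes were called. The change of PSME1 differed from that in rod-like cells by -1.14 ± 0.22 (edgeR adjusted p = 0.0319), the only gene called of 48, with 1.41% of all genes called. It was lost without RC726, without RC724 and with a term for each library (adjusted p = 0.174). Over all genes, 70 of 15666, 3 of 14890 and 1 of 15356 were called lower in those fits.

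Amacrine-like cells had PSMB9 and PSMB10 in control, and neither passed the test. PSMB9 was at 20.4 CPM over the graft and 4.93 in control for LG5, 6.96 and 9.11 for RC726, and 13.4 and 19.2 for RC724. PSMB10 was at 45.2 and 21.1, 8.70 and 9.94, and 8.04 and 8.24 CPM. Both genes were thus higher over the graft in LG5 and lower in RC726 and RC724. PSMB8, below the filter on low counts, was at 53.2 and 2.82, 3.48 and 1.66, and 4.02 and 0 CPM. The free RNA estimate was 44.3% of the LG5 amacrine-like sum over the graft and 23.6% of its control, against 7.71 to 13.6% elsewhere. With it subtracted in every library, the log2 changes were -0.20 for PSMB9 and -0.70 for PSMB10, neither called, and its part in the LG5 values alone was not tested. The log2 changes that follow are without this subtraction. The log2 changes were 0.30 ± 0.40 for PSMB9, 0.54 ± 0.30 for PSMB10, -0.03 ± 0.14 for PSME1 and 0.26 ± 0.20 for PSME2, and those of PSMB5, PSMB6, PSMB7, PSME3 and PSME4 were 0.12, 0.27, 0.10, 0.18 and -0.04.

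Of 46 genes tested in amacrine-like cells 0 passed by edgeR or DESeq2, 2 had an unadjusted p under 0.05, and 0.313% of 12760 genes were called. Against rod-like cells, the difference in change was -3.58 ± 0.58 for PSMB9 (edgeR adjusted p = 0.00371), -3.98 ± 0.56 for PSMB10 (adjusted p = 0.00113), -1.17 ± 0.21 for PSME1 (adjusted p = 0.00664) and -1.66 ± 0.31 for PSME2 (adjusted p = 0.0101). PSMG4 was the fifth gene called, at -0.67 (adjusted p = 0.0477), of 49 tested, where 2.28% of all genes were called. With a term for each library PSMB9 and PSMB10 still passed (adjusted p = 0.0367 and 0.0234), and without RC724 PSMB10 alone did. Over all genes, 22 of 16175 and 60 of 16118 were called lower in those fits.

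Microglia/macrophage-like cells were few, 10 to 647 barcodes a library, and the RC724 control held 9683 UMIs in all. Their clusters differed between the groups in LG5, where that led by CFD held 162 of 647 barcodes over the graft and 7 of 218 in control. PSMB8 was at 227 CPM in LG5, 199 in RC726 and 413 in RC724 in control, the last from 4 UMIs, and at 363, 248 and 230 over the graft. PSMB9 was at 48.7, 174 and 207 CPM in control and 111, 106 and 200 over the graft, and PSMB10 at 53.4, 58.1 and 103 in control and 123, 36.7 and 54.9 over the graft. The groups overlapped for all 3 genes. The log2 changes were 0.22 ± 0.55, 0.21 ± 0.57 and 0.41 ± 0.60, with -0.19 for PSME1, 0.60 for PSME2, 0.30 for PSMB5, 0.70 for PSMB6, 0.33 for PSMB7 and 0.71 for PSME4, and PSME3 was below the filter. Of 37 tested genes 0 passed by edgeR or DESeq2 and 0 had an unadjusted p under 0.05, where 0.212% of 3300 genes were called.

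The change in microglia/macrophage-like cells minus that in rod-like cells was -5.04 ± 0.49 for PSMB8 (edgeR adjusted p = 2.1e-10), -3.37 ± 0.47 for PSMB9 (adjusted p = 4.9e-06) and -3.77 ± 0.57 for PSMB10 (adjusted p = 2.04e-05), 3 of 48 genes, where 0.833% of all genes were called. These 3 calls were also made with a term for each library and without each experiment in turn. With that term, 7 of 14053 genes were called higher and 29 lower. All of these joint fits give a gene the same spread in both classes. The SEs of the 3 differences therefore lie below those of the microglia/macrophage-like changes fitted alone, and the p-values rest on this shared spread.

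Horizontal-like cells, 36 to 107 barcodes a library, gave too few UMIs of PSMB8, PSMB9 and PSMB10 to test, and PSMB8 was at 0 to 17.1 CPM over the graft. The log2 changes of PSME1 and PSME2 were 0.12 ± 0.22 and 0.16 ± 0.32, and those of PSMB5, PSMB6, PSMB7, PSME3 and PSME4 were 0.22, 0.33, 0.32, 0.17 and 0.12. Of 43 tested genes 0 passed by edgeR or DESeq2 and 1 had an unadjusted p under 0.05, where 0.0664% of 6026 genes were called. No difference from rod-like cells was called among 48 genes (6 at an unadjusted p under 0.05, with 0.696% of all genes called), but PSME1, PSME2 and PSMB8, the last below the filter in horizontal-like cells, were called without RC726. In that fit 153 of 14512 genes were called higher and 196 lower.

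**Figure D4:**
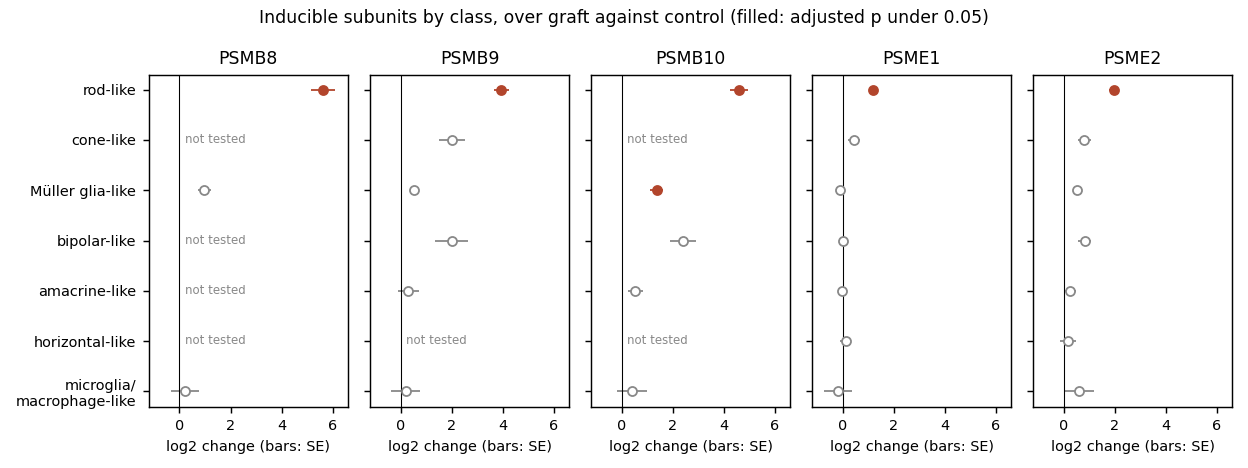
Log2 change of the 5 inducible subunits over the graft against control in each class, with bars for the SE, filled points for an adjusted p under 0.05 and "not tested" where a gene did not pass the filter on low counts. All 5 genes are filled in rod-like cells, at 1.19 to 5.62, and PSMB10 at 1.36 in Müller glia-like cells is the only other filled point.

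In control punches the order of the classes by their median level over the 3 libraries differed between inducible and constitutive genes. For PSMB8 the order was microglia/macrophage-like (median 227 CPM), Müller glia-like (19.9) and then the 5 neuronal classes at 0.439 to 1.66. The 3 steps did not overlap between libraries, with the Müller glia-like range at 19.5 to 22.9 CPM and the highest neuronal library at 3.42, while the ranges of the neuronal classes overlapped each other. For PSMB9 the order was microglia/macrophage-like (174), Müller glia-like (27.3) and amacrine-like (9.11), and the ranges of the last 2 overlapped. PSMB5 ran from 51.2 CPM in rod-like to 244 in horizontal-like cells. Over the graft, the rod-like median of PSMB8 was 38.3 CPM, next below microglia/macrophage-like cells (248) and just above Müller glia-like cells (36.2), and its range overlapped those of both.

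Each inducible catalytic subunit was also read as a share of the UMIs of its pair, in which depth cancels. Capture differs between genes, so only changes of the share are read. In rod-like cells PSMB8 made up 66.5% of the UMIs of PSMB8 and PSMB5 over the graft in LG5 (95% Wilson interval 64.7 to 68.2%), 32.5% in RC726 (30.3 to 34.7%) and 36.4% in RC724 (34.0 to 38.8%), against 0.985, 4.52 and 0.996% in control. PSMB10 made up 72.3, 18.9 and 17.1% of its pair with PSMB7 over the graft, against 5.32, 2.64 and 1.51% in control. PSMB9 reached 7.28, 12.1 and 14.8% of its pair with PSMB6, against 0.373, 2.33 and 1.47%. The intervals cover counting error only. Over the graft alone, the LG5 share was thus the highest for PSMB8 and PSMB10 and the lowest for PSMB9. The log2 ratio of the partners rose most in LG5 for each pair. For PSMB9 to PSMB6 it rose by 4.28 in LG5, 2.51 in RC726 and 3.49 in RC724.

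The log2 ratio of PSMB8 to PSMB5 in rod-like cells rose by 5.52 ± 2.12 (SD, n = 3 pairs), that of PSMB9 to PSMB6 by 3.43 ± 0.89 and that of PSMB10 to PSMB7 by 4.08 ± 1.27, each upward in all 3 experiments. By an exact two-sided sign-flip test over the pairs p was 0.25, the smallest that 3 pairs allow. In Müller glia-like cells the same ratios rose by 0.82 ± 0.91, 0.18 ± 0.10 and 1.23 ± 0.50, upward in each experiment, also with p = 0.25 by the exact test. There, PSMB8 made up 8.54, 16.4 and 14.6% of its pair in control and 24.7, 23.3 and 14.8% over the graft, so RC724 hardly moved. In cone-like cells the changes were 4.47 ± 3.12, 1.69 ± 1.74 and 2.81 ± 2.40, again upward in each experiment with p = 0.25 by the exact test, and PSMB8 made up 57.0, 6.16 and 3.25% over the graft. In microglia/macrophage-like cells PSMB8 already made up 64.5, 70.6 and 50.0% in control and 61.2, 67.5 and 56.8% over the graft, a change of 0.00 ± 0.33 (exact p = 1). There the log2 ratio of PSMB9 to PSMB6 changed by -0.88 ± 0.99, downward in each experiment (exact p = 0.25). That of PSMB10 to PSMB7 changed by -0.91 ± 1.83, upward in LG5 only (exact p = 0.5). In the small RC724 control sum, PSMB6 and PSMB7 were at 0 CPM.

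**Figure D5:**
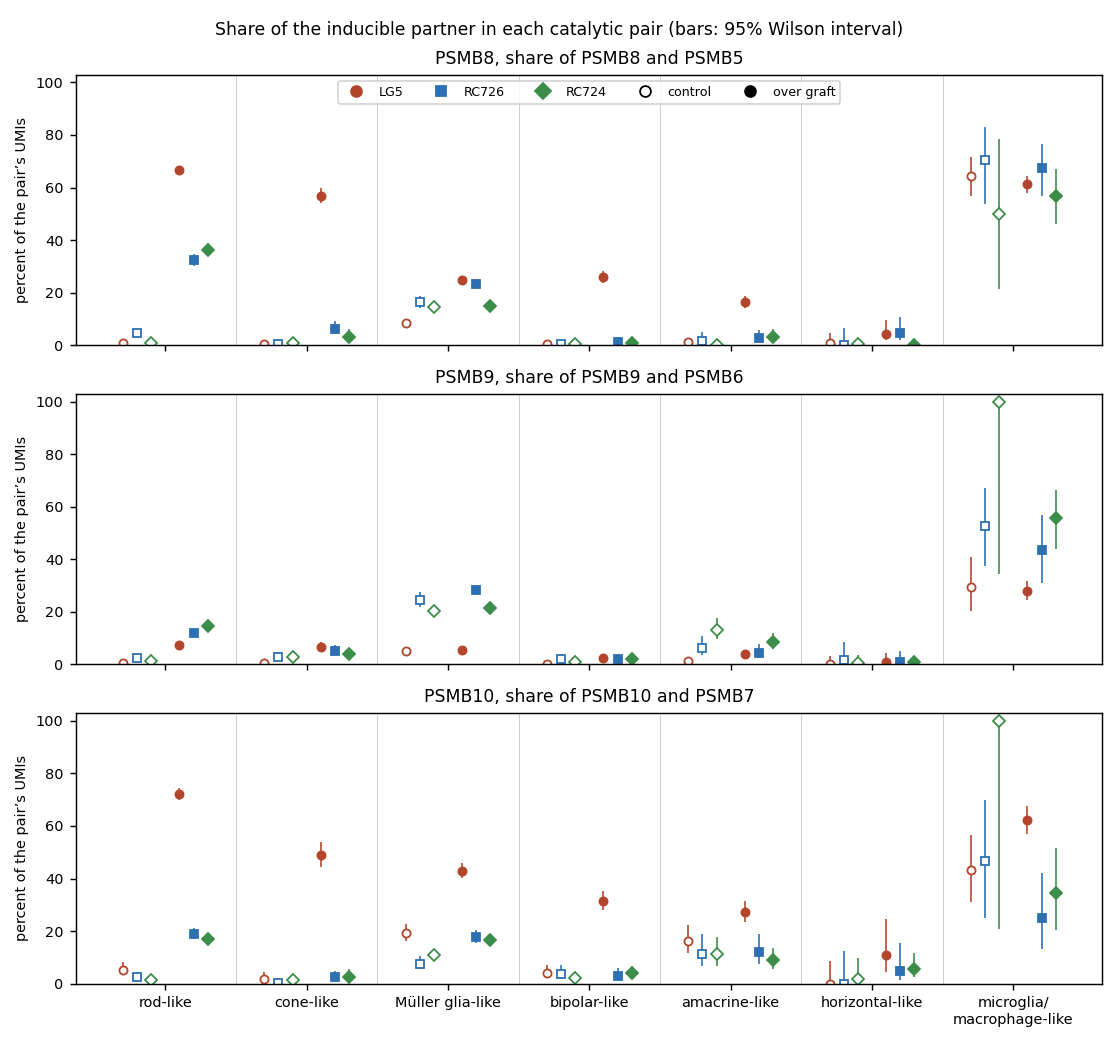
Share of the inducible partner among the UMIs of each catalytic pair, in percent, by class and library, with open points for control, filled points for punches over the graft and bars for the 95% Wilson interval. In rod-like cells PSMB8 moves from at most 4.52% to at least 32.5%, while in microglia/macrophage-like cells it lies between 50.0 and 70.6% in both groups.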

How the data were processed

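Single-cell RNA was measured in 6 libraries, 3 punches over a graft and 3 controls. The deposited matrices hold unnormalized UMI counts for each gene in each barcode, written by Cell Ranger 6.0.2 (LG5), 7.1.0 (RC726 over the graft and both RC724) and 7.0.0 (RC726 control), per the file headers. The lowest barcode has 500 UMIs. Neither labels nor headers state the genome build, annotation, intron handling or what was done with human graft reads. Of the gene names, 33363 of 34981 match the RefSeq table of UU_Cfam_GSD_1.0, as do all 50 members.

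A barcode was kept with 300 genes or more and no more than 20% mitochondrial UMIs. Scrublet's own threshold marked at most 3 barcodes a library, so the 6% with the highest score were left out. The Scrublet scores came from scanpy 1.11.5. Clusters came from leidenalg 0.10.2 with igraph 0.11.9, on neighbours from scikit-learn 1.9.0 (2549 genes without the members, 30 principal components, 20 neighbours, Leiden resolution 1.5). Of 45 clusters, 32 were named from 14 marker lists by mean log2 enrichment (at least 0.9, or 0.6 with an own marker among the top 10 genes, and a margin of 0.3), limits set after the data were seen; rebuilt names may differ from the study's. Unnamed clusters held 350 to 5473 barcodes a library and entered no class. Free RNA was estimated from rod markers in the other classes.

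UMIs were summed per library and class and tested with edgeR 4.0.16 in R 4.3.3 (filterByExpr, TMM, experiment as block, 2 residual degrees of freedom, Benjamini-Hochberg at 0.05). The spread borrowed from other genes counted for 8.04 (Müller glia-like) to 12.3 (amacrine-like) further degrees of freedom. In microglia/macrophage-like cells that number was infinite, so a gene's own spread had no part there. Class differences used joint fits with a class by experiment block, which give a gene the same spread in both classes. DESeq2 1.42.0 was an alternative. Pair ratios add 0.5 UMI. Both punches of an experiment share its name, and the samples were paired by it. The deviations of the paired punches from their group means correlated at 0.85 to 0.94 in rod-like and 0.78 to 0.91 in Müller glia-like sums. Punches of different experiments were not set against each other in this way, so these values cannot decide the pairing. On simulated counts for rod-like cells, the test recovered 83.3% of genes changed by 1 on the log2 scale and 27.1% of those changed by 0.5. In Müller glia-like cells these were 80.9% and 4.17%. The simulation gave all genes the same spread and a gene the same change in every experiment. Recovery where spread differs between genes, or changes between experiments, was not tested. Members and lists were chosen with earlier results of these data known.

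Named in every class are the 5 inducible genes and PSMB5, PSMB6, PSMB7, PSME3 and PSME4, and PSMF1 (with POMP, not analysed here) in rod-like and Müller glia-like cells. Of other members, up to 8 rises and 8 falls past the threshold with 1 direction in all 3 experiments are named, and up to 4 genes of each further list by p. Other genes given with a value (such as PSMA5, PSMD4 or PSMG2) were chosen after their values were seen. Some genes of the further lists are not reported here.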

Additional observations from a re-analysis of the deposited data

Results flagged for a closer look

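The tests of a difference in change between classes called 15 values, on the log2 scale. The change in Müller glia-like cells minus that in rod-like cells was -4.57 for PSMB8, -3.36 for PSMB9, -3.14 for PSMB10, -1.24 for PSME1 and -1.39 for PSME2. The change in amacrine-like cells minus that in rod-like cells was -3.58 for PSMB9, -3.98 for PSMB10, -1.17 for PSME1, -1.66 for PSME2 and -0.67 for PSMG4. The change in microglia/macrophage-like cells minus that in rod-like cells was -5.04 for PSMB8, -3.37 for PSMB9 and -3.77 for PSMB10. The change of PSME1 in bipolar-like cells minus that in rod-like cells was -1.14. The change of PSMB8 in cone-like cells minus that in Müller glia-like cells was 5.58, from 598 UMIs in the LG5 cone-like sum over the graft and 22 and 9 in the other experiments, and PSMB8 was below the filter on low counts in cone-like cells. The fit treats the 2 class sums of a library as independent and gives a gene the same spread in both classes. With a term for each library, the calls made again were those of PSMB9 and PSMB10 in amacrine-like and of PSMB8, PSMB9 and PSMB10 in microglia/macrophage-like cells against rod-like cells.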

How the results depend on the processing

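Of the 20 rises and 2 falls in rod-like cells, 0 and 0 were called without the replicate block. Without that block edgeR called 0 of all genes tested, in every class. The rises numbered 10 without the VMO1-led cluster and 7 to 22 when an experiment was left out. Over all genes, 980 and 628 to 1514 were called higher in these fits, against 1720 in the main fit. The falls numbered 1 with no filter on low counts, with library size only, with DESeq2, with the stricter barcode filter, with the barcode gate, without the VMO1-led cluster and with the unnamed clusters nearest to rod, and 0 to 1 when an experiment was left out. Over all genes, 865 to 1679 were called lower in the former settings and 424 to 1455 in the latter, against 1539 in the main fit. In cone-like cells, where 0 rises were called, 4 were called with no filter on low counts, 1 with no doublet removal, 1 with the barcode gate and 0 to 3 with an experiment left out. Over all genes, the 263 called higher became 564, 237, 296 and 48 to 470 in the same order. In Müller glia-like cells the 1 rise became 0 without the replicate block, with the barcode gate and with free RNA subtracted, 4 with no filter and 0 to 1 with an experiment left out. Over all genes, the 89 called higher became 0, 0, 2, 666 and 1 to 355 in the same order. In bipolar-like cells 0 became 4 with no filter, 3 with no doublet removal and 0 to 3 with an experiment left out, and in amacrine-like cells 1 with no filter. Over all genes, the 54 called higher in bipolar-like cells became 344, 194 and 52 to 225 in the same order, and the 26 in amacrine-like cells 157. The genes whose change differed from rod-like cells numbered, with a term for each library and with an experiment left out, 2 and 1 to 4 for amacrine-like cells (5 as reported), 0 and 0 to 2 for bipolar-like cells (1), 0 and 1 to 5 for Müller glia-like cells (5), and, with an experiment left out only, 0 to 1 for cone-like and 0 to 3 for horizontal-like cells (0 each). Over all genes, those called lower than in rod-like cells numbered, in the same order, 22 and 60 to 204 for amacrine-like cells (192 as reported), 1 and 3 to 152 for bipolar-like cells (132) and 31 and 42 to 313 for Müller glia-like cells (304). With an experiment left out, they numbered 0 to 30 for cone-like (9) and 15 to 196 for horizontal-like cells (71). The 1 gene that differed between cone-like and Müller glia-like cells became 0 with that term and 0 to 1 with an experiment left out. Over all genes, the 31 called higher there became 0 and 8 to 21.

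No direction of a called change turned. Uncalled log2 changes that turned when an experiment was left out ran as follows (lowest to highest of the 3 fits). In cone-like cells these were PSME1 (-0.052 to 0.68), PSMB5 (-0.042 to 0.11), PSMB7 (-0.068 to 0.077) and PSME3 (-0.24 to 0.048), in Müller glia-like cells PSME1 (-0.25 to 0.094) and in bipolar-like cells PSME1 (-0.21 to 0.22). In amacrine-like cells these were PSMB9 (-0.47 to 0.96), PSMB10 (-0.10 to 0.71), PSME1 (-0.24 to 0.13), PSME2 (-0.051 to 0.55), PSMB7 (-0.059 to 0.22) and PSME4 (-0.18 to 0.068), and in horizontal-like cells PSME1 (-0.10 to 0.34), PSMB5 (-0.013 to 0.42) and PSME4 (-0.43 to 0.43). In microglia/macrophage-like cells these were PSMB9 (-0.29 to 0.86), PSME1 (-0.43 to 0.027), PSME2 (-0.061 to 0.95) and PSMB5 (-0.033 to 0.65). With free RNA subtracted, an alternative chosen after seeing the data, the changes turned for PSME1 (-1.50), PSME2 (-0.37), PSMB5 (-0.028) and PSME4 (0.027) in bipolar-like, PSMB9 (-0.20), PSMB10 (-0.70) and PSME2 (-0.10) in amacrine-like, and PSME1 (-0.010) and PSME4 (-0.11) in horizontal-like cells. With the barcode gate PSME1 turned in bipolar-like (-0.027), horizontal-like (-0.26) and microglia/macrophage-like cells (0.13, also with the stricter barcode filter). With no filter on low counts PSMB7 (-0.016) in cone-like and PSME1 (0.0013) in microglia/macrophage-like cells turned, and without the replicate block PSME1 (0.032) and PSME4 (0.0049) in amacrine-like cells. The cause was not tested for any of these. The free RNA estimate passed 100% for LG5 cone-like sums and was not subtracted there or in rod-like cells.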

Other observations

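Classes with too few barcodes for a test also carried the inducible genes in control. Endothelial-like cells, named from vessel markers such as CLDN5, held 9 to 39 barcodes a library. Their PSMB8 stood at 98.1 CPM in LG5, 121 in RC726 and 73.1 in RC724 in control, from 10, 14 and 46 UMIs, and at 86.7, 108 and 63.4 over the graft. PSMB8 was thus lower over the graft in each experiment, from few molecules in control, as was PSME1. PSMB10 was higher over the graft in LG5 (72.3 and 58.9 CPM) and RC724 (55.9 and 33.4) and lower in RC726 (52.0 and 95.2). PSMB9 (64.1 and 57.2) and PSME2 (86.6 and 68.4) were higher over the graft in RC724 only. Astrocyte-like cells were found in RC726 and RC724 only. Their PSMB8 was at 51.2 CPM in control and 42.3 over the graft in RC726, and at 28.5 and 24.9 in RC724, and their PSMB9 at 90.5 and 69.2, and 50.1 and 48.7. In both classes these differences have no test.

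Lymphocyte-like cells were nearly all from the LG5 punch over the graft, with 140 barcodes there and 0 to 4 in each other library. Their sum of 155627 UMIs held 68 UMIs of PSMB8, 25 of PSMB9, 29 of PSMB10, 43 of PSME1 and 44 of PSME2.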
